A study of Rattus norvegicus with 8 samples.

Results

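The data described here are the counts of rno-miR-132 and rno-miR-212, the paired miRNAs of a single chromosomal cluster, in the kidneys of rats given aristolochic acid (AA). The rows were chosen by name, as every row of the deposited count table named miR-132 or miR-212 with either arm of the hairpin, which gave 4 of the 620 miRNAs listed: miR-132, miR-132*, miR-212 and miR-212*. The pair itself was selected on its higher counts in AA-treated rats of these data, so the difference between the groups is given below as a description, with no p-value for the members and nothing drawn from whether they passed the comparison across all miRNAs. AA, made by plants of the genus Aristolochia, damages the kidney and causes tumours. All 8 rats were male Fisher 344 animals carrying the Big Blue transgene, a shuttle vector used to score mutations, and were 6 weeks old when dosing began. The 4 AA-treated rats were gavaged 5 times a week with the sodium salt of AA, 10.0 mg/kg in a volume of 4 ml/kg, and the 4 control rats received 0.9% sodium chloride by the same schedule. The study's methods give 12 weeks of dosing, whereas the sample descriptions run from 12 to 15 weeks with the rat number in both groups and give an age of 18 weeks for every rat. Each kidney gave 1 small RNA library, with 13412373 to 15616670 counts on miRNAs.

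miRNAs are cut in pairs from the 2 arms of a hairpin, and one arm is usually kept as the guide that represses target mRNAs, while the other, marked here with an asterisk, is mostly discarded. Bases 2 to 8 of the guide, the seed, largely decide which mRNAs it can pair with. miR-132 and miR-212 lie beside each other and are best known from neurons, where the transcription factor CREB switches on their shared primary transcript after synaptic activity, growth factors or cAMP. Outside the brain the pair has been described in heart, vessel wall and immune cells, among other tissues.

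The mature sequences are shown first, because the pair shares a seed and is counted as different miRNAs only through the bases after it. All 4 members were matched to the RefSeq entries of the rat assembly GRCr8, where the guide arms are named miR-132-3p and miR-212-3p and the asterisked arms miR-132-5p and miR-212-5p. Each is written 5′ to 3′ with bases 2 to 8 in capitals.
miR-132 (chr10:60522091-60522112, plus strand): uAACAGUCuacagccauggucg
miR-212 (chr10:60521811-60521832, plus strand): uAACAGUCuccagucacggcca
miR-132* (chr10:60522055-60522076, plus strand): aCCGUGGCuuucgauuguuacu
miR-212* (chr10:60521771-60521794, plus strand): aCCUUGGCucuagacugcuuacug

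The guides had the same 9 bases at the 5′ end and were identical at 17 of 22 positions without gaps. Among the 724 mature rat miRNAs in the table, no other carried their seed, AACAGUC. The asterisked arms were identical at 14 of the 22 positions compared, and the seed of each was found in no other mature rat miRNA of the table. The counts of miR-132 and miR-212 therefore made up the whole of this seed family in the annotation used here, whereas the 2 asterisked arms carried different seeds.

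The hairpin of miR-132 is printed to show how the counted arms lie in their precursor (chr10:60522033-60522133, plus strand, GRCr8), with miR-132* and then miR-132 in capitals.
Mir132 hairpin: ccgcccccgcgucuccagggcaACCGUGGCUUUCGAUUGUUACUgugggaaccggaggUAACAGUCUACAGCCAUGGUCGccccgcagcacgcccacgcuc

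In the gene order of GRCr8, Mir212 and Mir132 followed each other between the protein-coding gene Hic1 and the lncRNA gene LOC120095261, with Ovca2 as the next gene after it. The end of miR-212 and the start of miR-132* were 222 bases apart. The 141 bases directly before the miR-132 hairpin (chr10:60521892-60522032, plus strand) are printed because they hold the letters TGACGTCA, the full cAMP response element to which CREB is known to bind, here in capitals.
Sequence before the Mir132 hairpin: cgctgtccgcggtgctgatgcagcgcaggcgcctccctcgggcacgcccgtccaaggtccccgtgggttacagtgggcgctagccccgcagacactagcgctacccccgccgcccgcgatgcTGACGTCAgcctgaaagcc

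This stretch belongs to the 300-base window that the table gives for the start of LOC120095261, from 250 bases before it to 50 bases within it, so that the hairpin lies inside the window. TGACGTCA reads the same on both strands, and it was found in 612 of 33469 windows of this length (1.83%). G and C made up 67.7% of this window, against a median of 51.7% over those windows. The share of 1.83% is therefore not matched to its base composition. In this window TGACGTCA ended 11 bases before the hairpin of miR-132 and began 181 bases after the end of miR-212. Both arms of miR-212 lie before the start of the window. A match of letters is a description of the sequence, and CREB binding was not measured here.

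miR-132, the more abundant guide, had 161, 106, 180 and 72 counts in control rats 1 to 4 and 529, 567, 475 and 734 counts in AA-treated rats 1 to 4. After division by size factors (median of ratios), which places the libraries on one scale and gives the normalized counts used from here on, the control rats had 167, 116, 171 and 88.0 and the AA-treated rats 594, 443, 468 and 598. The groups did not overlap, and the lowest AA-treated rat was 2.59-fold above the highest control rat. The mean was 136 ± 40.3 normalized counts in controls and 526 ± 81.7 in AA-treated rats (SD, n = 4 each), a ratio of 3.88. The log2 fold change fitted by edgeR was 1.95 with a standard error of 0.27.

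miR-212 carried the same seed at a lower level, with 16, 21, 36 and 20 counts in control rats 1 to 4 and 90, 90, 72 and 125 counts in AA-treated rats 1 to 4. The normalized counts were 16.6, 23.1, 34.1 and 24.4 in controls and 101, 70.2, 71.0 and 102 in AA-treated rats. Again the groups were apart, and the lowest AA-treated rat was 2.06-fold above the highest control rat. The mean was 24.6 ± 7.23 normalized counts in controls and 86.0 ± 17.8 in AA-treated rats (SD, n = 4 each), a ratio of 3.50 and a fitted log2 fold change of 1.80 with a standard error of 0.31. The fitted values of both guides thus lay within 1 standard error of each other. The standard errors given with edgeR fits are worked back from its test statistic. Neither is the error of the difference between the guides, which were counted in the same libraries.

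The asterisked arms were rare, and their values rest on few reads. miR-132*, the arm opposite miR-132, had 7, 2, 3 and 1 counts in control rats 1 to 4 and 9, 9, 6 and 14 counts in AA-treated rats 1 to 4. The normalized count of control rat 1, 7.28, lay above those of AA-treated rats 2 and 3, at 7.02 and 5.92, so that the groups overlapped. With 13 counts in all control rats and 38 in all AA-treated rats, the ratio of the summed counts, corrected for the size factors, was 2.48, with an exact 95% interval of 1.29 to 5.07. Such intervals cover counting error only and leave out the spread between rats. They treat every read as independent, which PCR copies of a molecule are not, so they may be too narrow even for counting error.

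miR-212*, the arm opposite miR-212, had 5, 4, 4 and 2 counts in control rats 1 to 4 and 8, 7, 9 and 17 counts in AA-treated rats 1 to 4. In normalized counts the groups were separated only narrowly, by 5.20 in control rat 1 and 5.46 in AA-treated rat 2. The corrected ratio of the summed counts, 41 against 15, was 2.32 with an exact 95% interval of 1.26 to 4.51. Both asterisked arms had lower ratios than their guides, at 3.77 (95% interval 3.42 to 4.15) for miR-132 and 3.44 (2.73 to 4.36) for miR-212 by the same calculation, and the intervals of arm and guide overlapped within each hairpin.

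**Figure D1:**
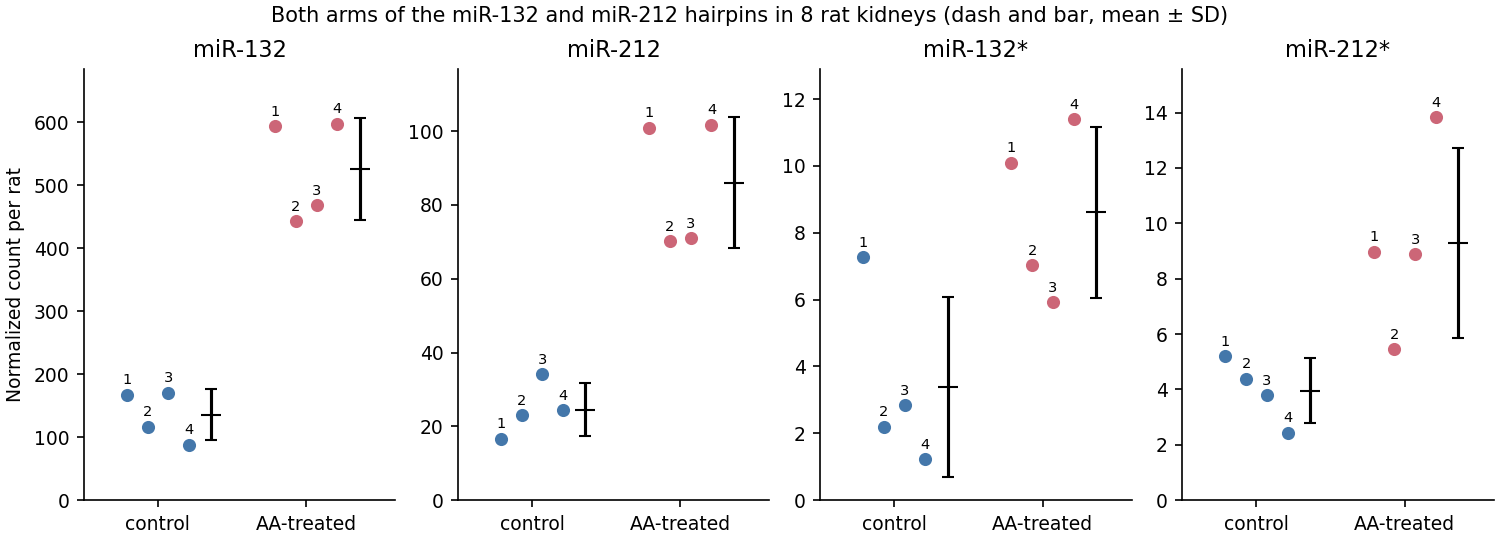
Normalized counts (y axis, from 0, a separate scale in each panel) of the 4 miRNAs in the 4 control and 4 AA-treated rats. Each point is a rat with its number, and the dash and bar are the mean and SD of the group. For miR-132 and miR-212 every AA-treated rat lies above every control rat, whereas control rat 1 lies above AA-treated rats 2 and 3 for miR-132*.

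Of the 4 members, miR-132 and miR-212 passed both thresholds of the comparison across all miRNAs (edgeR's quasi-likelihood test, Benjamini-Hochberg adjusted p under 0.05 and a ratio of group means over 1.5), where 5.81% of the 620 miRNAs did so with higher counts in AA-treated rats. All AA-treated rats lay above all control rats for 3 of the 4 members, and for 9.68% of all miRNAs. Since the pair was selected on this difference, nothing is read from these counts. Among the 542 miRNAs counted in both groups, 32 had a higher ratio of AA-treated to control means than miR-132, of which 18 passed both thresholds, and 38 had a higher ratio than miR-212, of which 22 passed both. Lower ratios are not part of this order. Of all miRNAs, 36 passed as higher and 20 as lower in AA-treated rats, against 58 and 11 when libraries were scaled by total counts. Under that scaling, the median log2 ratio of these 542 miRNAs moved from 0.02 to 0.27. Relative to this median, the log2 ratio was 1.94 with size factors and 1.92 with total counts for miR-132, and 1.79 and 1.77 for miR-212.

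**Figure D2:**
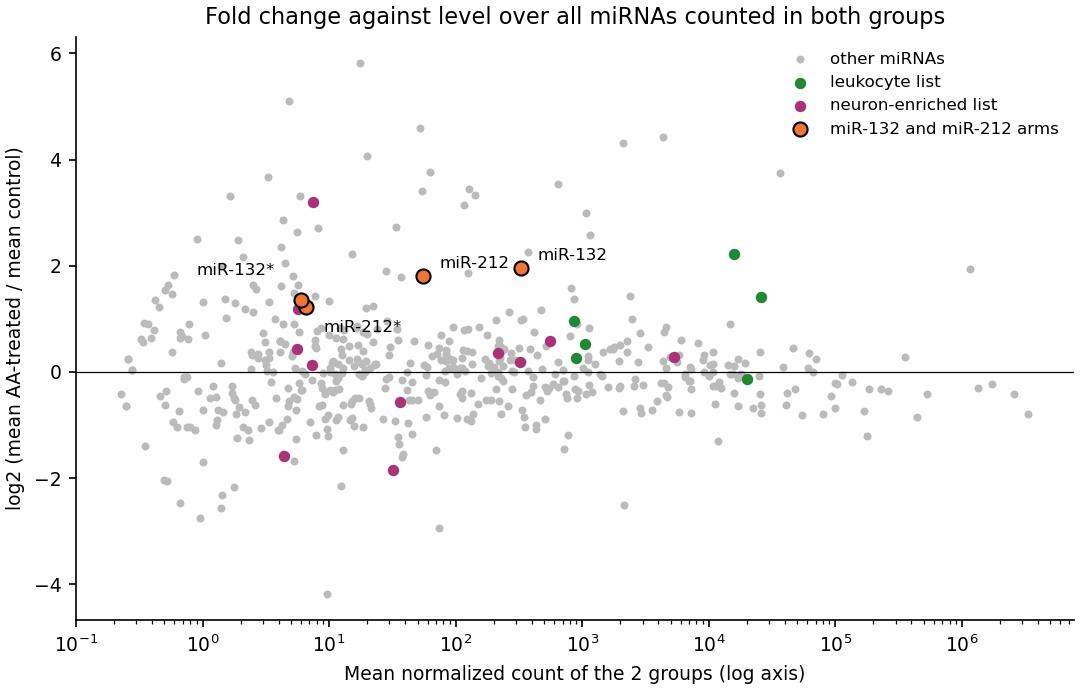
Log2 ratio of the group means (y axis) against the mean normalized count of both groups (x axis, log scale) for the 542 miRNAs counted in both groups. The arms of the pair are outlined and named, and miR-132 and miR-212 lie at 1.95 and 1.81 on the y axis, with their asterisked arms at 1.35 and 1.23 and far lower counts. The highest neuron-enriched point is miR-124, whose control counts were all 3 or fewer.

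In the order of all listed miRNAs by mean normalized count, miR-132 stood above miR-212 in both groups. miR-132 held rank 217 of 620 by its mean in controls and rank 155 in AA-treated rats, and miR-212 held ranks 299 and 255. The miRNAs next to miR-132 in the control order, miR-15b* at 141 ± 21.3 and miR-503* at 135 ± 28.7 normalized counts (SD, n = 4 each), differed from it by less than the spread between rats, as did miR-495 at 25.1 ± 8.45 and miR-218-1* at 24.4 ± 4.48 from miR-212. In the AA-treated rats miR-15b* had 279 ± 56.2 and miR-503* 218 ± 71.5 normalized counts, and miR-495 and miR-218-1* had 12.2 ± 2.25 and 16.7 ± 5.66 (SD, n = 4 each). The asterisked arms held ranks 426 (miR-132*) and 418 (miR-212*) in the control rats. Of their neighbours in that order, miR-138-2* and miR-541* beside miR-132* and miR-539 beside miR-212* had 3.48 ± 1.57, 3.32 ± 1.71 and 3.92 ± 3.11 normalized counts, and miR-741-3p above miR-212* had 4.11 ± 5.56 (SD, n = 4 each).

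Summed over both guides, the seed family had 11.6, 8.65, 13.9 and 6.70 CPM (counts scaled to a common library total) in control rats 1 to 4 and 46.2, 43.2, 39.6 and 55.0 CPM in AA-treated rats 1 to 4. In normalized counts the sum was 160 ± 41.9 in controls and 612 ± 99.3 in AA-treated rats (SD, n = 4 each), a ratio of 3.82. miR-132 supplied most of it in every rat.

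Within a rat, miR-132 exceeded miR-212 in 8 of 8 kidneys, by 5.82-fold in the geometric mean (log2 difference 2.54 ± 0.42, SD, n = 8), and the difference was significant in an exact sign-flip permutation test over the rats (two-sided, p = 0.00781, which is as low as this test can go with 8 rats). This comparison within a rat was not used to select the pair. In the 4 control rats alone, all had more miR-132, and the smallest p possible with 4 rats is 0.125. Both guides are 22 bases long, and how efficiently each sequence is captured in a library was not calibrated here.

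The proportion of both guides was nearly constant among the AA-treated rats and varied among the control rats. miR-212 made up 14.5%, 13.7%, 13.2% and 14.6% of the summed counts of both guides in AA-treated rats 1 to 4, a mean of 14.0% ± 0.680 (SD, n = 4), against 9.04%, 16.5%, 16.7% and 21.7% in control rats 1 to 4, a mean of 16% ± 5.23 (SD, n = 4). The AA-treated values all lay inside the range of the control values. The exact 95% binomial intervals of control rat 1 (5.26% to 14.3%) and control rat 4 (13.8% to 31.6%) overlapped slightly, and each rests on fewer reads, 177 and 92 counts of both guides, than the 547 to 859 counts of the AA-treated rats. Pooled over rats, the share was 15.2% (12.4% to 18.3%) in controls and 14.1% (12.8% to 15.4%) in AA-treated rats, and the intervals overlapped. Pooled intervals leave out the spread between rats, so they cannot decide whether the proportion shifted. A shift between the groups was not tested over the rats.

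The share of the asterisked arm within its hairpin differed between the hairpins. Over all control rats miR-132* was 2.44% (exact 95% interval 1.31% to 4.14%) of the counts of its hairpin and miR-212* was 13.9% (7.99% to 21.9%), and over all AA-treated rats they were 1.62% (1.15% to 2.22%) and 9.81% (7.13% to 13.1%). In each of the 8 rats the share was higher for miR-212* than for miR-132*. Between the groups the intervals overlapped for both hairpins.

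**Figure D3:**
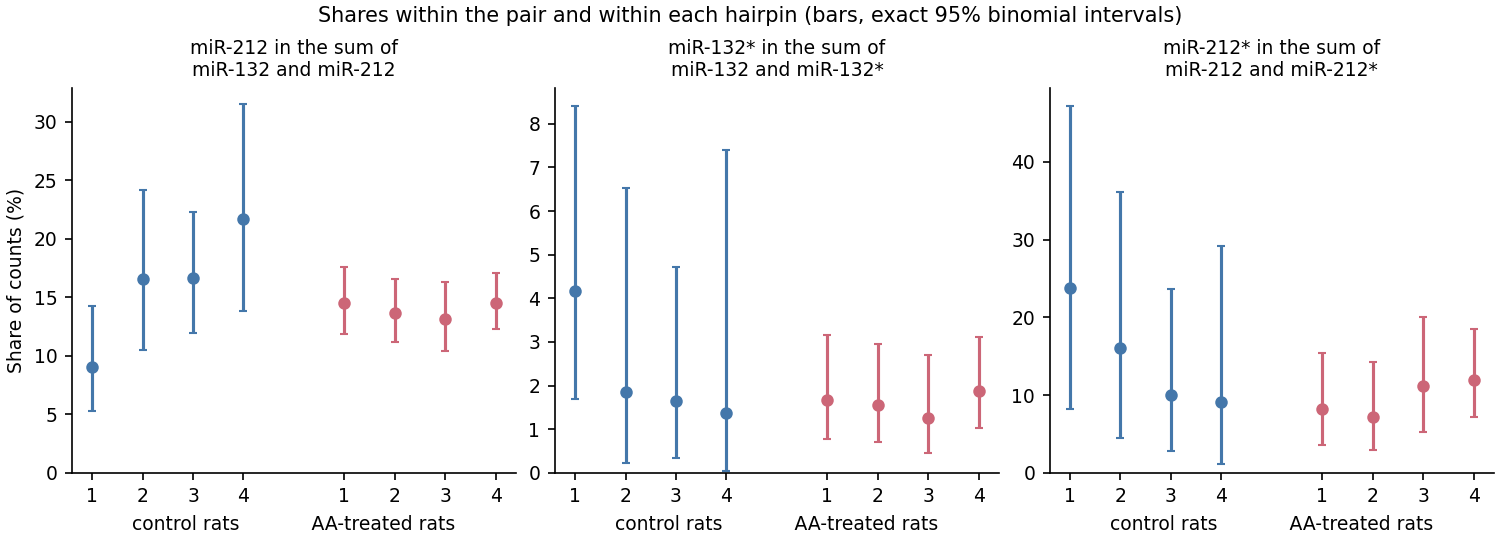
Share of counts in percent (y axis, from 0) for each rat (x axis), with exact 95% binomial intervals as bars, of miR-212 among both guides, of miR-132* within its hairpin and of miR-212* within its hairpin. The AA-treated rats lie between 13.2% and 14.6% in the left panel, and the control rats between 9.04% and 21.7%.

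How the members varied among rats of one group is a comparison the selection did not use. In the AA-treated rats, miR-132, miR-212 and miR-212* had the same order of rats, from rat 4 through rats 1 and 3 to rat 2. Several places in this order rest on small differences. Rats 4 and 1 differed little for both guides. Rats 3 and 2 had 71.0 and 70.2 normalized counts of miR-212, and rats 1 and 3 had 8.98 and 8.88 of miR-212*. In the control rats the orders differed. Rat 3 was highest for both guides, rat 4 was lowest for miR-132 and second for miR-212, and rat 1 was second for miR-132 and lowest for miR-212.

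After subtraction of the group mean on the log2 scale with a pseudocount of 1, Pearson's r over the 8 rats was 0.27 between miR-132 and miR-212 and 0.83 between miR-132 and miR-132*. It was 0.12 between miR-212 and miR-212*, 0.69 between miR-132 and miR-212*, 0.69 between both asterisked arms and -0.17 between miR-132* and miR-212. These values share libraries and size factors and are given as a description. The value for the guides turned on single control rats, since it was 0.84 without control rat 1 and -0.12 without control rat 3. The values for the asterisked arms rest on 1 to 17 counts a rat.

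**Figure D4:**
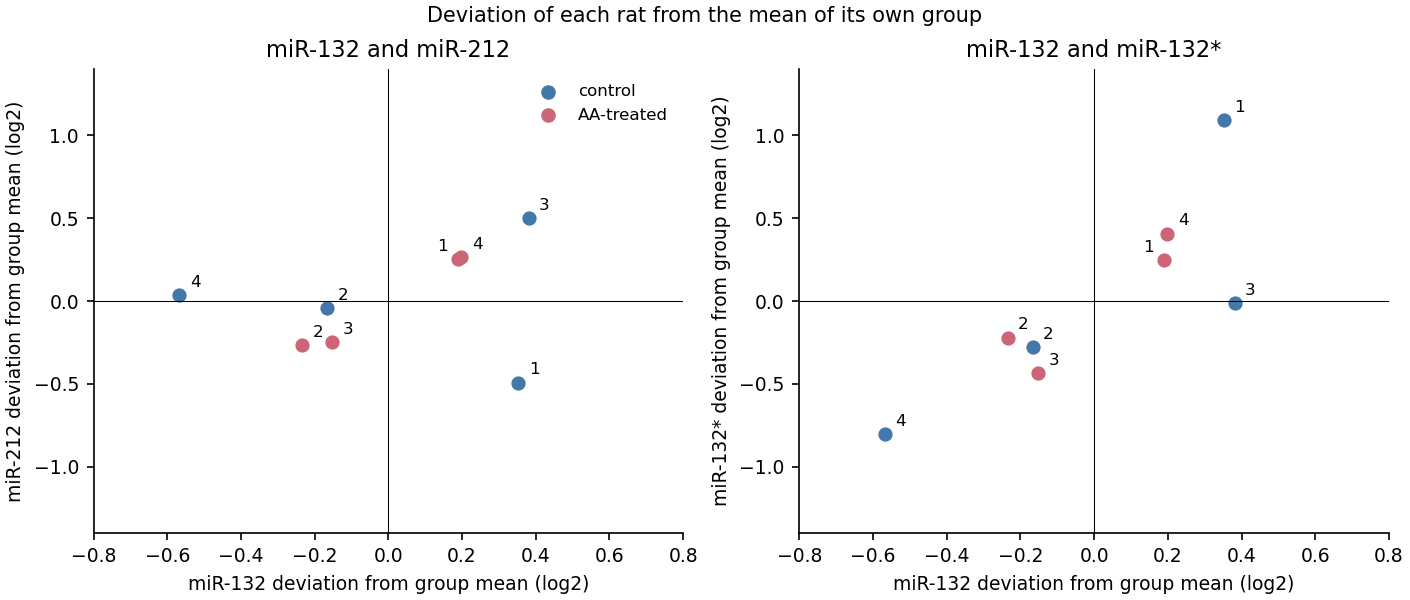
Deviation of each rat from the mean of its own group in log2 units, for miR-212 (left, y axis) and miR-132* (right, y axis) against miR-132 (x axis). Points are rats with their numbers. AA-treated rats 1 and 4 are above their group mean and rats 2 and 3 below it on both axes of both panels, and control rat 1 in the left panel is high for miR-132 and low for miR-212.

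Both guides had a mean of at least 10 normalized counts and neither asterisked arm did. Among the 369 other miRNAs at that level, miR-212 held rank 99 by its r with miR-132, and the median r was -0.02. The 5 most like miR-132 were miR-19a (r = 0.94), a miR-17~92 cluster member, miR-222 (0.92), miR-872 (0.91), let-7b (0.91) and let-7c (0.91), and the last 2 differ by few bases, so that reads may be split between them. The 5 most like miR-212 were miR-501 (0.95), miR-221* (0.77), miR-322* (0.67), miR-219-5p (0.66) and miR-17-1-3p (0.65). No miRNA was among the 5 of both guides.

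Other miRNAs linked to CREB or to neuronal activity were examined beside the pair. Of the 6 in this list, 1 rose, none fell, and 5 did not pass the thresholds (edgeR's quasi-likelihood test, adjusted over all 620 miRNAs, of which 9.03% passed in either direction). The median log2 ratio of the 6 was 0.25, against 0.02 for all miRNAs. miR-124, the most abundant miRNA of neurons, had 1, 1, 0 and 3 counts in control rats 1 to 4 and 7, 32, 7 and 17 in AA-treated rats 1 to 4. It was at least 4.15-fold higher in AA-treated rats when computed against 3 counts in each control rat. The adjusted p of 0.0106 from edgeR belongs to the counts without that floor. The level of miR-124 was far below that of the pair.

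miR-219-5p, described together with miR-132 as a light- and clock-regulated miRNA of the brain, had 71.4 ± 19.4 normalized counts in controls and 83.3 ± 33.6 in AA-treated rats (SD, n = 4 each), a fitted log2 fold change of 0.22 with a standard error of 0.32 (adjusted p = 0.679 from edgeR). The sign turned to -0.087 without AA-treated rat 4, which had 133 normalized counts while rats 1 to 3 of that group had 59.5 to 74.9. miR-134, a regulator of dendritic spines, had 415 ± 53.8 and 252 ± 91.0 normalized counts (SD, n = 4 each), with all AA-treated rats below all control rats, a fitted log2 fold change of -0.72 and an adjusted p of 0.158 from edgeR. miR-9 and miR-9*, the arms of a neural hairpin, had fitted log2 fold changes of 0.28 and 0.58 (adjusted p = 0.496 and 0.200 from edgeR), and miR-184 had -0.35 (adjusted p = 0.527).

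Since kidney tissue holds nerves, vessels and infiltrating cells, lists of miRNAs marking other cell types were summed in each rat. In whole tissue, a change in the number of cells of a type and a change in RNA per cell cannot be told apart. The leukocyte list, of which 6 of 7 miRNAs were listed in the table, summed to 37014 to 49304 normalized counts in controls and 61042 to 111404 in AA-treated rats, with no overlap. miR-142 is a general marker of blood cells, miR-223 of myeloid cells, and miR-146 is induced by NF-kappaB. In this list miR-142-3p, miR-146b and miR-223 rose, with ratios of 2.67, 4.69 and 1.94 (adjusted p = 7.92e-04, 2.85e-04 and 0.0231 from edgeR). The others, miR-142-5p, miR-146a and miR-150, did not pass, at ratios of 1.20, 0.91 and 1.44. The higher sum was carried by miR-142-3p (mean 14047 in controls and 37532 in AA-treated rats) and miR-146b (5619 and 26348). By contrast miR-146a, the most abundant of the list in controls, had means of 21102 and 19140. The call of miR-223 was lost without control rat 1, 2 or 3 (adjusted p = 0.0718, 0.0747 and 0.0674 from edgeR). With all rats, 9.03% of the 620 miRNAs passed in either direction. The median log2 ratio of the list was 0.74. miR-146a and miR-146b are near-identical in sequence, which leaves the division of their reads uncertain. The part of leukocytes in the counts of miR-132 and miR-212 was not tested.

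Across all 620 miRNAs, 9.03% passed the thresholds in either direction. The neuron-enriched list had 12 of 15 miRNAs in the table, of which miR-124 rose, miR-129-2* fell and 10 did not pass. Its sum was 4880 to 6789 normalized counts in controls and 5320 to 9649 in AA-treated rats, and most of it was miR-9. miR-129-2* had 49.7 ± 9.60 and 13.8 ± 6.26 normalized counts (SD, n = 4 each), a fitted log2 fold change of -1.85 with a standard error of 0.38 (adjusted p = 0.00678 from edgeR), so that the 2 called neuronal miRNAs moved in opposite directions. A separate entry, mir-129-2*, had 10.5 normalized counts in control and 8.12 in AA-treated rats and did not pass (adjusted p = 0.495 from edgeR). Nor did miR-129, at 43.1 and 29.1 (adjusted p = 0.324 from edgeR). The median log2 ratio of the list was 0.28 over the 11 with a count in both groups. The part of nerve tissue in the counts of the pair was not tested.

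The thresholds were passed by 9.03% of all 620 miRNAs in either direction. None of the 5 fibroblast and smooth muscle miRNAs and neither of the 2 endothelial miRNAs passed, with median log2 ratios of 0.43 and -0.42. Their sums, governed by miR-143 and miR-126, overlapped between the groups. The fibroblast and smooth muscle list was split in direction. In it miR-143 was lower in AA-treated rats, at a ratio of 0.75. Higher ratios of 1.66, 1.51, 1.35 and 1.16 were found for miR-199a-5p, miR-199a-3p, miR-214 and miR-145. miR-199a-3p passed as higher in AA-treated rats under 5 of 15 alternatives and miR-199a-5p under 3, which included the omission of AA-treated rat 1 (adjusted p = 0.0338 and 0.0366 from edgeR). Of the 7 kidney epithelial miRNAs listed, miR-204 fell, from 447 ± 103 to 247 ± 31.9 normalized counts (SD, n = 4 each; adjusted p = 0.0357 from edgeR), 6 did not pass, and the median log2 ratio was -0.32. The call of miR-204 was lost under TMM and total-count scaling and without control rat 1, 2 or 4, AA-treated rat 1 or 3, or both rats numbered 4, with adjusted p from 0.0513 to 0.174 in edgeR, while miR-194 passed as lower under 5 of 15 alternatives, among them the omission of AA-treated rat 1 (adjusted p = 0.016). The list had an eighth name, miR-10a, which the table holds as miR-10a-5p and which was not summed. The sum was at least 1563420 normalized counts in every rat and was carried by miR-30a and miR-192, whereas miR-204 and miR-10b were far lower.

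**Figure D5:**
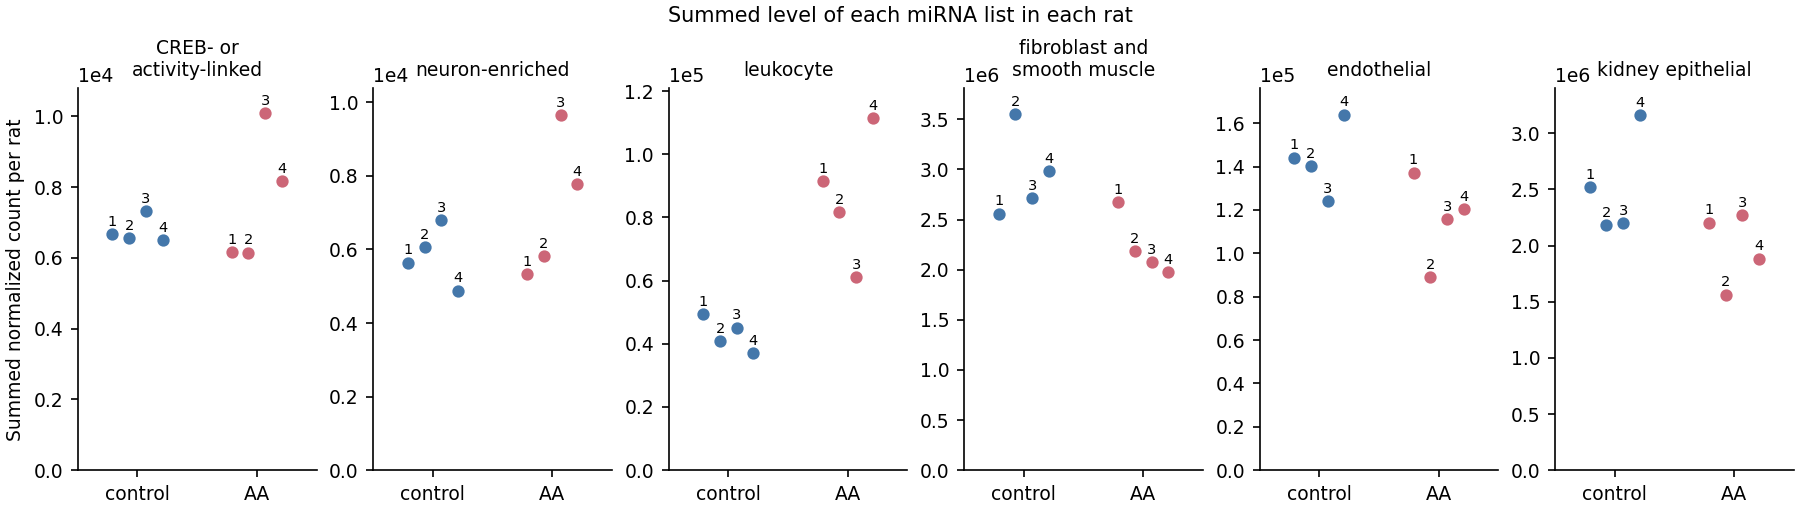
Summed normalized counts (y axis, from 0, a separate scale in each panel) of 6 lists of miRNAs in each rat, with points numbered by rat. The leukocyte sums of the AA-treated rats, from 61042 to 111404, lie above all control rats, whereas the other 5 lists overlap between the groups.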

How the data were processed

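Small RNA of each kidney was sequenced on an Illumina Genome Analyzer II, and the submitters' processing notes name CASAVA 1.7. The authors masked adaptors, discarded contaminated reads, grouped identical reads and assigned the rest to rat miRNAs of miRBase 16 in miRanalyzer with default settings. The values the authors deposited are raw read counts per mature miRNA. The rule for reads matching several miRNAs is not given in the sources used here. Groups and rat numbers come from the sample titles.

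Size factors by the median of ratios (0.818 to 1.05 for controls, 0.891 to 1.28 for AA-treated rats) and edgeR 4.0.16 quasi-likelihood fits over all 620 miRNAs, without a filter or covariate, were computed from them in R 4.3.3. Alternatives used TMM, total counts, DESeq2 1.42.0, limma 3.58.1 (voom), a mean of at least 10 counts, a replicate block and omitted rats. The fits were tested on simulated data. Intervals are exact binomial (Clopper-Pearson). Sequences are RefSeq, GRCr8; the deposited table names no build. Other steps used Python 3.11.15, scipy 1.17.1, pandas 2.3.3 and matplotlib 3.10.9.

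The members and lists were chosen with earlier results of these data known. The miRNAs named were the members, all of the CREB list, called miRNAs of the other lists, the 5 most like each guide and the neighbours in the control order; other list miRNAs, such as miR-194 and miR-199a-3p, were named after their values were seen. Of the list miRNAs at 3 counts or fewer in all control rats, miR-124 was given as a lower bound. miR-124*, which had no count in the control rats, was given no ratio. The rats are separate animals.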

Additional observations from a re-analysis of the deposited data

Results flagged for a closer look

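Of 82 groups of 4 rats examined over the named miRNAs, shares and list sums, 5 had a rat far from the other 3 of its group by Dixon's criterion, which chance meets in about 1 of 20 groups, and none of the 5 concerns an arm of miR-132 or miR-212. miR-134 had 117 normalized counts in AA-treated rat 4 against 279 to 309 in the others. miR-146b had 7093 in control rat 1 against 5072 to 5206. miR-503* had 91.6 in control rat 4 against 147 to 151, and miR-539 had 8.55 in that rat against 2.08 to 2.84. miR-741-3p had 323 in AA-treated rat 1 against 4.89 to 56.2.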

How the results depend on the processing

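The log2 ratios of miR-132 and miR-212 stayed within 1 SD of the values given under all 11 alternatives tried, at 1.79 to 2.08 and 1.66 to 2.01 with each rat left out, and at 1.74 and 1.73 without both rats numbered 4. Under TMM and total counts the groups of both guides and of miR-212* did not overlap, while those of miR-132* did. The other alternatives only leave out rats. Groups that are apart with all rats then stay apart, save for small shifts of the size factors, so nothing is drawn from those settings. The groups of miR-132* were apart only without control rat 1, where its log2 ratio was 2.04 (range 1.06 to 2.04 with each rat left out). Without the rats numbered 4, the log2 ratio of miR-132* was 0.92 and that of miR-212* 0.81. The r between the guides lay between -0.12 and 0.84 with each rat left out. The number of miRNAs whose groups did not overlap was 165 without the rats numbered 4, where fewer rats make separation easier, against 101 with all rats. The fitted log2 fold change of miR-219-5p turned to -0.087 without AA-treated rat 4 and to -0.077 without both rats numbered 4 (range -0.087 to 0.42 with each rat left out), and that of miR-184 to 3.72e-04 without control rat 4 (range -0.56 to 3.72e-04); the cause was not tested. In the lists, miR-204 no longer passed under 8 and miR-223 under 3 of 15 alternatives, whereas miR-194 and miR-199a-3p each passed under 5, miR-199a-5p under 3 and miR-150 under 1, so that 4 to 9 list miRNAs passed against 6.

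Rats with the same number were different animals, although the sample descriptions give them the same weeks of dosing. Their deviations had correlations from -0.011 to 0.34 (mean 0.15, against -0.048 for other pairs), with 5 of 8 rats most like the one with their own number. As 1 pair was below 0.1, the block was kept as an alternative, and whether the numbers pair the rats was not settled. With the replicate block 74 miRNAs passed instead of 56, and the fitted log2 fold changes were 1.98 for miR-132 and 1.81 for miR-212; miR-194, miR-199a-3p and miR-199a-5p passed (adjusted p = 0.0362, 0.0436 and 0.0198). With total counts, 58 of the passing miRNAs were higher and 11 lower, against 36 and 20. At this depth the asterisked arms had 1 to 17 counts a rat, and a shift of their share between the groups was not tested over the rats.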
